A study of Mus musculus with 6 samples.

Results

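Cadherins and non-clustered protocadherins were followed in mRNA of the nucleus accumbens core, a ventral striatal region known for its role in reward seeking. The family was taken by gene symbol, as every gene named Cdh or Pcdh followed by a number (Pcdh11x included), which gave 35 of the 24532 genes in the deposited table. It comprised 23 cadherins and 12 protocadherins, and the clustered Pcdha, Pcdhb and Pcdhg genes were outside it. The members were selected by name, but the family itself was picked from measured values, because Cdh22 had been one of the leading genes when ethanol and control were compared in these same 6 libraries. The values of Cdh22 in that comparison are therefore given as a description, without a test.

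Tissue, with its cell type given as mixed, came from wild-type male mice that the labels call adolescent, with postnatal days 35 to 55 given as the age. There were 3 libraries titled control and 3 titled ethanol. The treatment field reads ethanol exposure for all of them, so the groups rest on the titles. Per the labels, the procedure was contextual fear conditioning, then ethanol (20% v/v) in 6 intraperitoneal doses within 6 h (1.8 g/kg first, then 5 of 1.2 g/kg), then context extinction, and then every-other-day drinking for 27 days, with tissue taken 24 h afterwards. What the control mice received in place of ethanol injections is not stated, and the design text gives the conditioning, extinction and drinking steps for all mice. Whether each library stands for its own animal is not stated, and the p-values then describe only how these libraries vary, which may be technical.

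Cadherins are calcium-dependent adhesion molecules that bind their own kind, or close relatives, across the gap between neighbouring cells. The classical type I and type II cadherins are tied through catenins to actin, and in the brain they hold synaptic membranes together and help sort neurons into nuclei and layers. The delta-protocadherins adhere more weakly and signal through their cytoplasmic tails, those of the delta-2 class through the WAVE actin-nucleating complex. Different neuron populations carry different members, so that the striatum has its own combination.

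Depth ranged from 35898026 to 67399599 estimated reads per library. At that depth 3 reads were worth 0.048 to 0.082 CPM (TMM-scaled counts per 1e6 reads), which covers counting error only. Markers of medium spiny neurons, the principal cells of this tissue, were all present, with summed levels of 1968 to 2377 CPM in control and 2178 to 4021 CPM in ethanol. Of these markers 11 of 12 had a log2 fold change above 0 (median 0.42), against 52.7% of all genes. In 4 of the 12 ethanol lay above control without overlap, against 9.35% of all genes. The highest sum was that of ethanol 2, and the part of these markers in the members' values was not tested. Ethanol 2 stood apart from the other libraries in a way that depended on transcript length. Across the 15774 tested genes, which are not independent replicates, its log2 ratio to the mean of ethanol 1 and ethanol 3 had a Spearman rho of -0.68 with the length of the gene's most abundant transcript. The median ratio was 0.66 for transcripts under 1000 bases and -0.77 for those of 8000 bases or more. Against the mean of all 6 libraries the rho was -0.62 in ethanol 2, 0.54 in ethanol 3 and 0.32 in ethanol 1, and lay between -0.23 and 0.09 in the controls. Family members have long transcripts, with a median of 4846 bases against 2838 over all tested genes, so the log2 fold changes of the members described are followed by their values without ethanol 2 or by their range when 1 library was left out.

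The family spanned a wide range of expression in this tissue. Levels between genes are given as FPKM, the deposited value scaled for transcript length and depth, summed over a gene's transcripts and averaged over all 6 libraries. Cdh13 encodes T-cadherin, which is held in the membrane by a lipid anchor and has no cytoplasmic tail. It was the most abundant member, at 22.6 ± 5.79 FPKM (SD, n = 6). The delta-2 protocadherin Pcdh10, known for its part in the growth of striatal axons, followed at 15.1 ± 3.13 FPKM. Next was Cdh2, the N-cadherin of synapses, at 14.4 ± 2.90 FPKM. Pcdh10 and Cdh2 differed by less than their spread, while both lay below Cdh13 in each of the 6 libraries. Then came Pcdh9 at 9.84 ± 2.21, Pcdh8 at 9.38 ± 2.78 and Cdh22 at 7.75 ± 3.42 FPKM, whose ranges overlap. These 6 genes held 47.4% to 54.5% of the family's summed FPKM in each library.

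**Figure D1:**
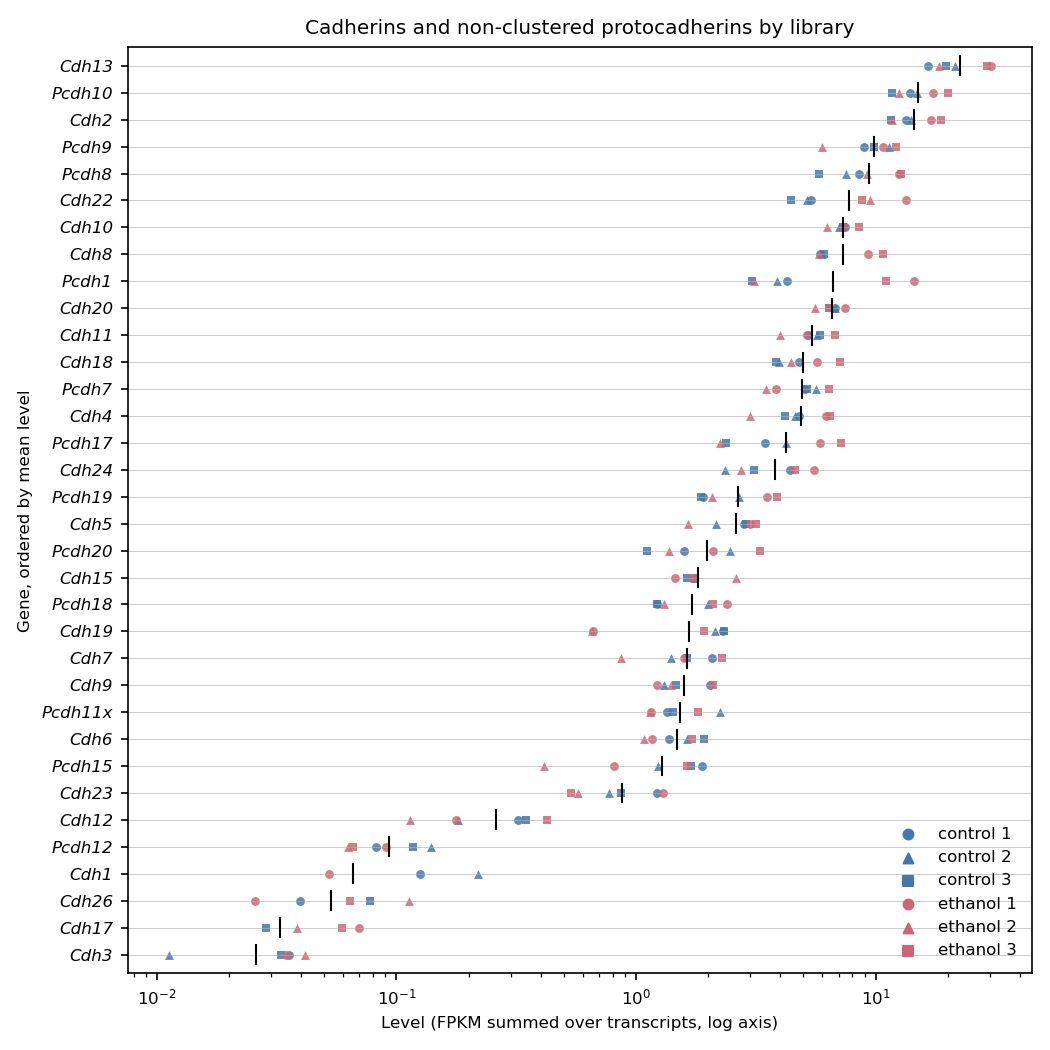
Level of each member with reads, as FPKM summed over transcripts on a log axis, with 1 point per library (colour for group, shape for replicate number, libraries at 0 not drawn) and a black tick at the mean of the 6. Cdh13 leads at a mean of 22.6 FPKM, a long run of members lies between 1 and 10 FPKM, and Pcdh12, Cdh1, Cdh26, Cdh17 and Cdh3 have means below 0.1 FPKM.

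By structural class, type II cadherins made up 31.2% to 36.3% of the family's FPKM in a library. Delta-2 protocadherins made up 17.5% to 22.6%, delta-1 protocadherins 11.1% to 15.7% and type I cadherins 12.9% to 14.2%. The lowest share of delta-1 protocadherins was that of ethanol 2. Members of the lowest rank were those known from epithelia and other organs. Cdh1, the E-cadherin of epithelia, had 38, 44 and 0 reads in control 1 to 3 and 20, 0 and 0 reads in ethanol 1 to 3. Cdh3, or P-cadherin, had 0 to 12 reads. Cdh17, a cadherin of liver and intestine, had 0 to 21, and Cdh26 had 0 to 18. Cdh16, known from kidney, had 0 reads in every library, where 3 reads would be 0.048 to 0.082 CPM. The low-count filter removed Cdh3, Cdh16, Cdh17 and Cdh26 and left 31 members for the test.

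Ethanol and control libraries were compared to ask which members differed in the accumbens core after the drinking period. By edgeR's quasi-likelihood test, 0 of the 30 tested members other than Cdh22 passed an adjusted p of 0.05, and over all 15774 genes 0% were called. The smallest adjusted p among these 30 was 0.42. Without adjustment, 7 of the 30 had a p below 0.05 (Cdh8, Cdh13, Cdh18, Cdh19, Pcdh1, Pcdh8 and Pcdh19), against 10.7% of all genes. limma-voom likewise called 0 members, and DESeq2 called 1 of the 30, Pcdh1, with 0.919% of all genes called. Log2 fold changes were above 0 in 21 of 31 members, with a median of 0.11, against 52.7% of all genes and a median of 0.02. With libraries scaled by total counts only, 17 of 31 members and 41.8% of all genes lay above 0. Cdh22, which led to the choice of the family, is included in these counts of 31.

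All 3 ethanol libraries lay outside the range of the 3 control libraries in 5 of 31 members. Cdh22, Pcdh8, Cdh8 and Cdh18 had ethanol above control, and Cdh19 had ethanol below. The separation of Cdh22 was known when the family was picked, so it carries no weight in this count. Among the 30 tested members other than Cdh22, such groups were found in Pcdh8, Cdh8, Cdh18 and Cdh19. Over all genes 17.8% had groups that do not overlap (9.35% with ethanol above, 8.41% below), so the family's share of such genes was near the background. With total counts only, or with the deposited FPKM in place of CPM, the same held for Cdh22, Pcdh8 and Cdh19 alone, since Cdh8 and Cdh18 then overlapped.

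Type II cadherins carry a pair of conserved tryptophans in their adhesive interface. Among them Cdh22 had the widest separation, but it led to the choice of the family, so this rank is no independent result. Cdh22 is also called PB-cadherin, after pituitary and brain, and in mm10 it lies on chromosome 2 from 165111507 to 165234737. Its control libraries held 22.6, 21.5 and 18.8 CPM and its ethanol libraries 63.1, 42.9 and 37.7 CPM. The lowest ethanol library was thus well above the highest control library, and the controls were tightly grouped while ethanol 1 stood above the other ethanol libraries. The means were 21.0 ± 1.95 and 47.9 ± 13.4 CPM (SD, n = 3 each). The log2 fold change was 1.19 (SE 0.21), or 2.29-fold. The table holds a single transcript of 3586 bases for Cdh22, so its reads were not divided among isoforms. With 1 library left out at a time, its log2 fold change lay between 0.94 and 1.34, the lowest being the value without ethanol 1, and it was 1.25 without ethanol 2.

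Cdh8, a type II cadherin of selected neurons in cortex, thalamus and striatum, held 26.6, 26.3 and 28.1 CPM in control. In ethanol it held 43.9, 29.5 and 47.1 CPM. Ethanol 2 was only just above the controls, while ethanol 1 and ethanol 3 were clearly higher. The log2 fold change was 0.57 (SE 0.20; edgeR adjusted p = 0.44), and 0.74 without ethanol 2. Cdh18, a cadherin of the nervous system from the chromosome 15 group, had its ethanol libraries in the same order, with 15.4, 12.5 and 12.4 CPM in control and 20.6, 15.5 and 23.4 CPM in ethanol. In Cdh18 the gap between control 1 and ethanol 2 was very small, and the log2 fold change was 0.56 (SE 0.20; edgeR adjusted p = 0.44), or 0.70 without ethanol 2.

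Cdh19, known from the neural crest and Schwann cell lineage, was the member with ethanol below control. It held 8.24, 7.59 and 8.42 CPM in control and 2.68, 2.56 and 7.06 CPM in ethanol. Ethanol 1 and ethanol 2 were alike and low, whereas ethanol 3 lay just below the controls. The log2 fold change was -0.99 (SE 0.38; edgeR adjusted p = 0.45), and it was -1.62 without ethanol 3 and -0.75 without ethanol 2. Markers of meningeal fibroblasts and of myelinating oligodendrocytes also had mostly negative log2 fold changes. Of the meningeal fibroblast markers 10 of 10 tested had a negative log2 fold change (median -0.61), with summed levels of 59.1 to 107 CPM in control and 46.7 to 54.4 CPM in ethanol. The low-count filter removed the marker Slc47a1, which held 0.78, 1.82 and 0.16 CPM in control and 0, 0.07 and 0 CPM in ethanol. Of the markers of myelinating oligodendrocytes 6 of 8 were negative (median -0.13), with summed levels of 19961 to 23592 CPM in control and 16670 to 21706 CPM in ethanol, and none was at 0. The myelin sums overlapped between the groups, and the lowest was in ethanol 3, the ethanol library with the most Cdh19. Single myelin markers differed in this. Mbp was lowest in ethanol 3, at 9671 CPM, while Ermn held 76.8, 109 and 126 CPM in ethanol 1 to 3. The part of these marker lists in the result for Cdh19 was not tested. In bulk tissue, fewer cells of a type and less RNA per cell cannot be told apart.

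The other type II cadherins were level between the groups or overlapped. Cdh10 held 25.9 to 28.9 CPM in control and 25.1 to 32.9 CPM in ethanol, and its log2 fold change was 0.11 (SE 0.17), with 0.21 without ethanol 2 and 0.04 without ethanol 3. Cdh20 was among the steadiest members in control, with 28.02 to 29.4 CPM, and ranged from 26.4 to 36.7 CPM in ethanol. Cdh11, known from mesenchyme and also present in brain, ranged from 31.2 to 35.4 CPM and from 25.9 to 41.5 CPM. In each of these 3 genes ethanol 2 was the lowest of all libraries. Cdh5, the VE-cadherin of endothelial junctions, ranged from 10.01 to 13.6 CPM in control and from 8.35 to 15.8 CPM in ethanol. The endothelial marker list had summed levels of 194 to 234 CPM and 185 to 203 CPM. Cdh6, Cdh9, Cdh10, Cdh12 and Cdh18 all lie on chromosome 15, and of these only Cdh18 had groups that do not overlap. Cdh7, Cdh19 and Cdh20 lie on chromosome 1. Cdh7 and Cdh19 were alike at 1.64 and 1.67 FPKM on average, and Cdh20 stood at 6.56 FPKM.

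**Figure D2:**
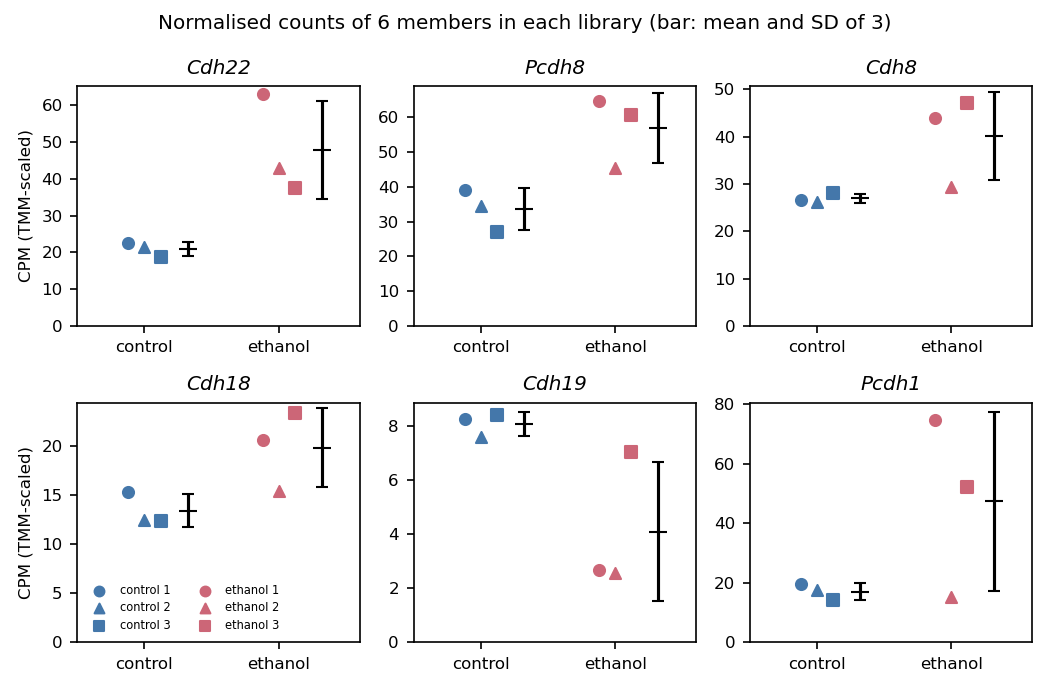
TMM-scaled CPM in each library (points, shape for replicate number) with mean and SD of 3 libraries per group (black), for the 5 members whose groups do not overlap and for Pcdh1, each axis starting at 0. Cdh22 shows 3 ethanol libraries from 37.7 to 63.1 CPM above 3 controls from 18.8 to 22.6 CPM, and Pcdh1 shows ethanol 2 at 15.3 CPM among the controls.

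Of the type I cadherins, Cdh2 held 75.6, 78.6 and 66.1 CPM in control and 109, 71.8 and 109 CPM in ethanol. Ethanol 1 and ethanol 3 were above all controls and ethanol 2 was among them, and the log2 fold change was 0.39 (SE 0.20; edgeR adjusted p = 0.50), or 0.56 without ethanol 2. Cdh4, the R-cadherin of retina and forebrain, ranged from 31.4 to 35.2 CPM in control and stood at 52.4, 23.8 and 48.8 CPM in ethanol, so that ethanol 2 was below all controls and the other ethanol libraries above them. Its log2 fold change of 0.31 (SE 0.27) was 0.58 without ethanol 2, 0.11 without ethanol 1 and 0.19 without ethanol 3. Cdh15, the M-cadherin known from muscle and cerebellum, went the other way and was the one tested member with its highest value in ethanol 2, at 9.40 CPM against 5.48 to 5.90 CPM in the other 5 libraries. Its log2 fold change was 0.28 (SE 0.26), and -0.01 without ethanol 2.

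Cdh13 repeated the pattern of Cdh2 at a higher level, with 75.8, 96.9 and 90.8 CPM in control and 156, 91.3 and 138 CPM in ethanol. Its log2 fold change was 0.55 (SE 0.22; edgeR adjusted p = 0.45), and 0.73 without ethanol 2. Cdh23 encodes a tip-link cadherin of hair cells and ranged from 10.03 to 16.2 CPM in control and from 7.27 to 19.2 CPM in ethanol. Its log2 fold change was -0.12 (SE 0.36), with a sign that changed when control 1, ethanol 2 or ethanol 3 was left out. Between 99.7% and 100% of its estimated reads in a library were assigned to a transcript that RefSeq lists as noncoding, and the coding variants had at most 3 reads.

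Delta-2 protocadherins were the class in which all 5 members had log2 fold changes above 0, under each scaling and without each library. Pcdh8, also known as arcadlin, is induced by neuronal activity and draws N-cadherin in from the synaptic membrane. It held 39.1, 34.5 and 27.1 CPM in control and 64.7, 45.5 and 60.5 CPM in ethanol. All ethanol libraries lay above all controls, and ethanol 2 was the lowest of them. The means were 33.5 ± 6.03 and 56.9 ± 10.1 CPM (SD, n = 3 each), and the log2 fold change was 0.76 (SE 0.20; edgeR adjusted p = 0.42), or 0.89 without ethanol 2.

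Pcdh10 held 112, 123 and 98.8 CPM in control and 159, 111 and 167 CPM in ethanol. Its log2 fold change was 0.39 (SE 0.19), or 0.54 without ethanol 2. Pcdh17, known from presynaptic sites of cortico-basal ganglia circuits, held 38.5, 46.7 and 26.6 CPM in control and 73.2, 27.0 and 81.7 CPM in ethanol. In both genes ethanol 2 lay within the control range and the other ethanol libraries exceeded it. The log2 fold change of Pcdh17 was 0.70 (SE 0.37) and became 1.04 without ethanol 2, 0.43 without ethanol 3 and 0.50 without control 3. Pcdh19, the X-linked gene mutated in an epilepsy that mainly affects girls, ranged from 22.6 to 32.04 CPM in control and stood at 47.6, 27.0 and 47.3 CPM in ethanol. Pcdh18 ranged from 7.43 to 11.9 CPM in control and from 8.59 to 16.4 CPM in ethanol. No member of the class passed the test.

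Pcdh1, a delta-1 protocadherin known from epithelia and brain, had the lowest log2 ratio of ethanol 2 to the mean of ethanol 1 and ethanol 3 among the 31 tested members. Its controls held 19.6, 17.6 and 14.1 CPM, and ethanol 1 to 3 held 74.7, 15.3 and 52.0 CPM. The value of ethanol 2 lay inside the control range, while ethanol 1 and ethanol 3 were far above it. The log2 fold change was 1.47 (SE 0.45; edgeR adjusted p = 0.43). It was 0.98 without ethanol 1 (edgeR adjusted p = 0.90), 1.40 without ethanol 3 (0.29) and 1.88 without ethanol 2 (0.0075). Without 1 of the controls, the edgeR adjusted p was 0.63 to 0.93. The fit without ethanol 2 drops the very library that differed from the other ethanol libraries, so its small p is no independent support. At a length of 3902 bases the ratio of ethanol 2 to the mean of ethanol 1 and ethanol 3 was -1.99 in Pcdh1. The median over all genes of 2000 to 4000 bases was -0.02.

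The other delta-1 members were level or overlapped. Pcdh9 had a log2 fold change of 0.05 (SE 0.25), and its sign depended on the fit (0.29 without ethanol 2, -0.11 without ethanol 3). It ranged from 62.8 to 79.0 CPM in control and stood at 85.5, 44.8 and 88.4 CPM in ethanol. Pcdh7 ranged from 50.7 to 55.8 CPM in control and from 37.7 to 65.8 CPM in ethanol, with a log2 fold change of -0.12 (SE 0.22), or 0.03 without ethanol 2. Pcdh11x ranged from 13.7 to 22.9 and from 12.7 to 18.8 CPM. The 3 members outside these classes were Pcdh15, Pcdh20 and Pcdh12. Pcdh15 is the partner of Cdh23 in the tip link and also marks oligodendrocyte precursors. It held 19.9, 13.1 and 18.2 CPM in control and 9.69, 4.77 and 17.7 CPM in ethanol, with a log2 fold change of -0.67 (SE 0.40), which was -0.33 without ethanol 2 and -1.23 without ethanol 3. The list of oligodendrocyte precursor markers had 5 of 6 members above 0 and a median of 0.20. Its summed levels overlapped, with 541 to 553 CPM in control and 546 to 729 CPM in ethanol. The part of these markers in the values of Pcdh15 was not tested. Pcdh20 had a log2 fold change of 0.48 (SE 0.34), which ran from 0.17 without ethanol 3 to 0.83 without control 2 and was 0.25 without control 3. Pcdh12, an endothelial protocadherin, was at 0.46 to 0.91 CPM throughout, with -0.47 (SE 0.52), or -0.29 without control 2.

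**Figure D3:**
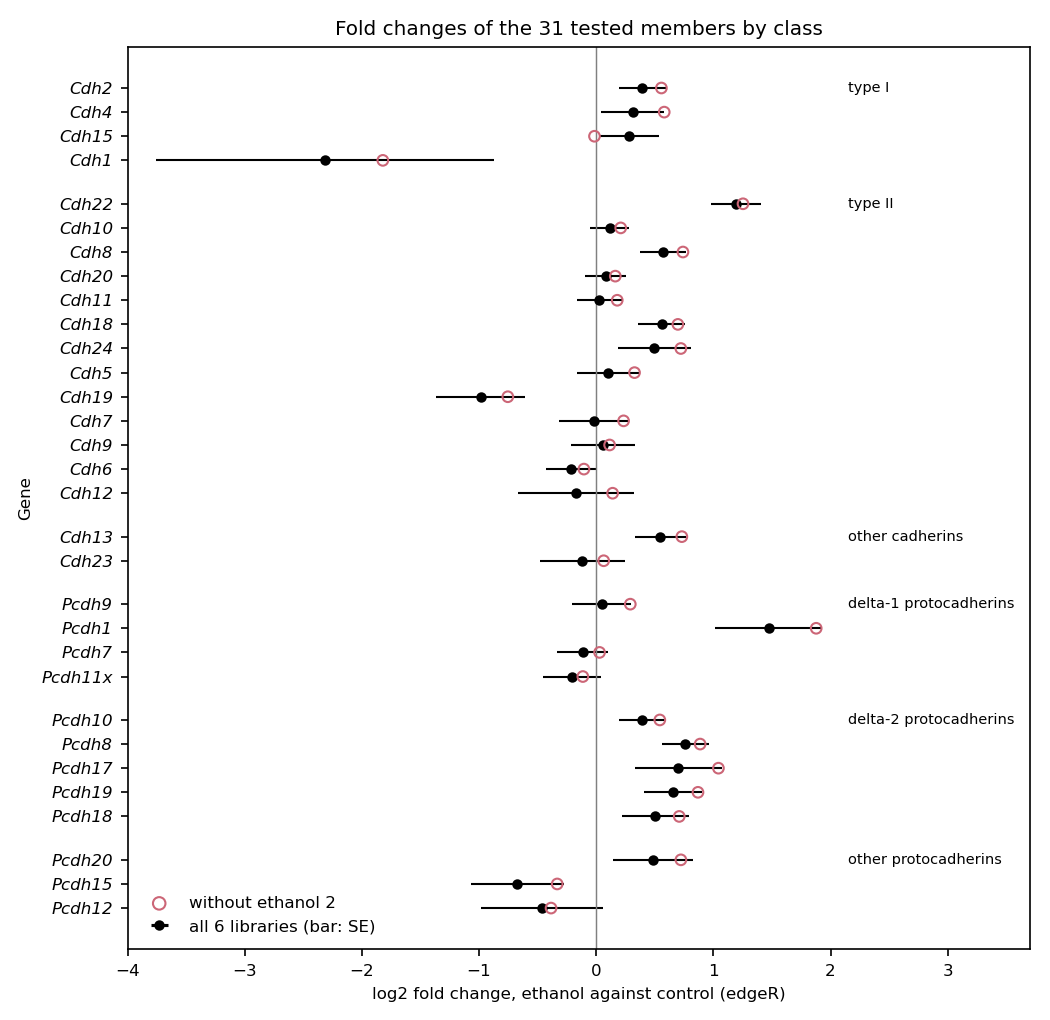
Log2 fold change of ethanol against control for the 31 tested members by class, from edgeR on all 6 libraries (black points, bars are SE) and without ethanol 2 (open circles). Most open circles lie to the right of the black points, all 5 delta-2 protocadherins lie above 0, and Cdh1 has the widest bar because it had 0 reads in 3 libraries.

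Ethanol 2 stood below the other ethanol libraries in most of the family. It was below both other ethanol libraries in 25 of 31 members, against 39.5% of all genes, and was the lowest of all 6 libraries in 13 members, against 23.9%. After the values had been seen, members were counted in which ethanol 1 and ethanol 3 exceeded every control and ethanol 2 did not. There were 12 of 31 such members, against 13.5% of all genes. They were Cdh2, Cdh4, Cdh5, Cdh10, Cdh13, Cdh24, Pcdh1, Pcdh9, Pcdh10, Pcdh17, Pcdh18 and Pcdh19. Without ethanol 2, edgeR called 3 of 31 tested members other than Cdh22, namely Cdh8, Pcdh8 and Pcdh1, all with ethanol above, against 1.33% of all genes. The family median, Cdh22 included, was then 0.31, and that of all genes -0.01.

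Over all genes the ratio of ethanol 2 to the other ethanol libraries fell with transcript length, while in members it had no steady course. Of the tested members 12 had a main transcript of 2000 to 4000 bases, 11 one of 4000 to 8000 and 8 a longer one, and none had a shorter one. In the class of 4000 to 8000 bases the median log2 ratio of ethanol 2 to the mean of ethanol 1 and ethanol 3 was -0.73 in members and -0.39 over all genes. In the class above 8000 bases it was -0.54 and -0.77, and in the class of 2000 to 4000 bases -0.56 and -0.02. Without ethanol 2, the log2 fold change itself had a Spearman rho of 0.36 with length across all genes, compared with 0.08 with all libraries. In members the median log2 fold change without ethanol 2 was 0.51, 0.29 and 0.05 from the shortest of these classes to the longest. Over all genes it was 0.03, 0.15 and 0.20 in the same classes. The length classes were set after the data had been seen, and the part of length in the members' values was not tested. Cdh22 had a ratio of -0.18 at 3586 bases, and its log2 fold change was 1.19 with ethanol 2 and 1.25 without it.

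**Figure D4:**
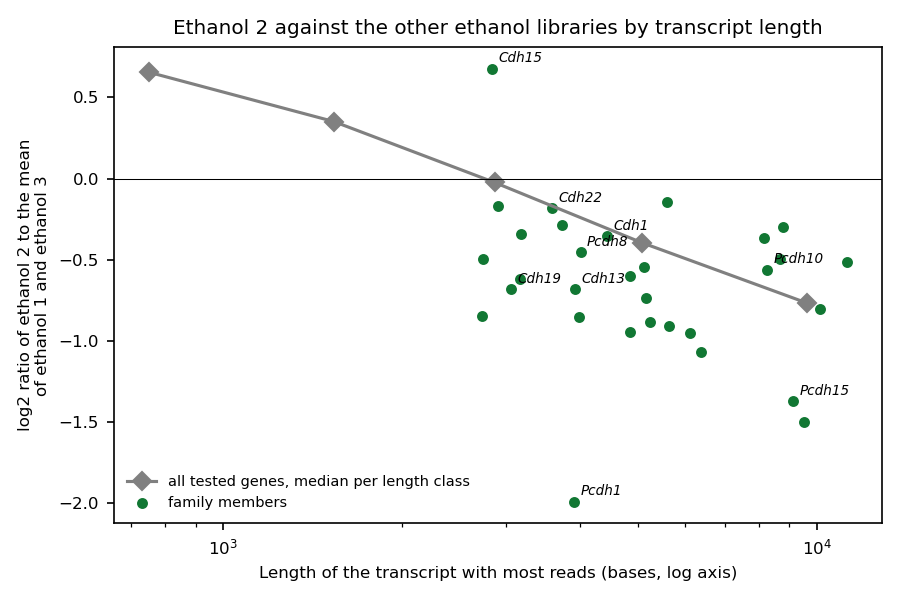
Log2 ratio of ethanol 2 to the mean of ethanol 1 and ethanol 3 (CPM with 0.5 added) against the length of the most abundant transcript, on a log axis, for the 31 tested members (green) and as medians of all tested genes in 5 length classes (grey). The grey line descends from 0.66 to -0.77, and most members lie below it, with Pcdh1 at -1.99 and Cdh15 at 0.68 as the extremes.

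To show the regulatory sequence around the members with higher ethanol libraries, the 250 bases before the RefSeq start are given for Cdh22, Pcdh8, Cdh8 and Cdh18, 5′ to 3′ on the strand of the gene (GRCm38.p6, the mm10 assembly). Capitals mark matches on either strand. Of the motifs searched, the SP1 box is spelled GGGCGG. The TATA box is spelled TATAAA. The short form of the cAMP response element (CRE) is spelled TGACG and is contained in the full CRE. The E-box is spelled CACGTG and had no match in these windows. The table used had promoters for 22 of the 35 members.
Cdh22, chr2:165234738-165234987, minus strand: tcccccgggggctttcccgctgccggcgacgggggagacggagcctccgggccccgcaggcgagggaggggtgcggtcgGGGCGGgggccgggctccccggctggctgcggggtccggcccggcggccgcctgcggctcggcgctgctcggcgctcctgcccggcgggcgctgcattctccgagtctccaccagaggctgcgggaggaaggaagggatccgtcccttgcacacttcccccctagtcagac
Pcdh8, chr14:79771313-79771562, minus strand: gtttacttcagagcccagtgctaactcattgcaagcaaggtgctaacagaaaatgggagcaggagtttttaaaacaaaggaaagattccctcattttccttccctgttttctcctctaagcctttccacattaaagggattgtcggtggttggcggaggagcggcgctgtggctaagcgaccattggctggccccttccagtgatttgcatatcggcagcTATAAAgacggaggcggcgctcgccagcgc
Cdh8, chr8:99416472-99416721, minus strand: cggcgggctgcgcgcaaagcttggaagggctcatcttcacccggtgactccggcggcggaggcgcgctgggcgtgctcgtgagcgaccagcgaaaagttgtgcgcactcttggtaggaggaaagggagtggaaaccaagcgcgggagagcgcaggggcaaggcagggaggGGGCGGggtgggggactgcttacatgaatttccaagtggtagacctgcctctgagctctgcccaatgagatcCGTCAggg
Cdh18, chr15:23036213-23036462, plus strand: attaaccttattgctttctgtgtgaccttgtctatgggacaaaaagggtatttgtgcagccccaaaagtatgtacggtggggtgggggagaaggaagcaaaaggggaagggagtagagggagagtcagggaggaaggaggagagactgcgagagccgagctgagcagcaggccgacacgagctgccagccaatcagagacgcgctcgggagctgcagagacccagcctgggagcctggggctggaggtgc

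These 4 windows differed from each other in composition. Cdh22 had the richest, at 77.6% G and C with 30 CpG dinucleotides, where the median over 32851 promoters was 52.4% and 6. Cdh8 had 64.4% and 20, Cdh18 58.0% and 8, and Pcdh8 51.2% and 11. Pcdh8 alone of the 4 had a TATA box, which began 30 bases before the start and which 12.4% of all promoters hold. Cdh22 and Cdh8 had 1 SP1 box each, held by 32.7% of all promoters and by 36% of the family's 25 promoters. The short CRE, held by 17.8% of all promoters, occurred in Cdh8 alone, and the E-box, held by 6.02%, in none of the 4. A match is a string of letters and not a binding site.

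The split of reads between transcripts of 1 gene was an estimate of the authors' software, and how stable it was differed between members. In Pcdh10 the 8263-base transcript took 62.1% to 72.9% of the reads in all 6 libraries. In Pcdh8 the shorter transcript of 3712 bases took 27.2%, 10.8% and 14.6% in control 1 to 3 and 28.6%, 33.3% and 18.9% in ethanol 1 to 3, so that the groups overlapped. Pcdh19 has a pair of transcripts of 10294 and 10150 bases, and the longer took from 1.53% of the reads in control 1 to 100% in control 2 and in ethanol 2. Cdh10 gave 64.9% of its reads to the longer transcript in control 1 and 0% to 15.3% in the other libraries. In Pcdh11x the coding transcripts together had 366 and 1 reads in control 1 and 0 and 0 in control 2, where 881 reads were given to a noncoding variant. Isoform levels of these genes were not compared between groups.

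**Figure D5:**
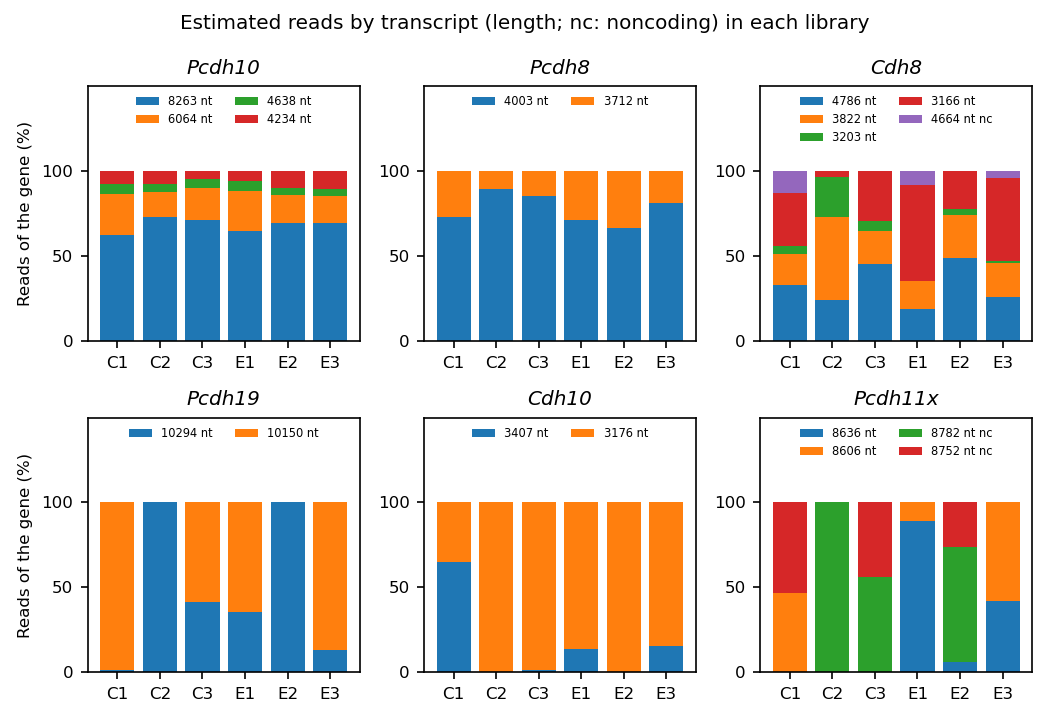
Share of a gene's estimated reads (%) given to each transcript, named by its length in bases, in control (C1 to C3) and ethanol (E1 to E3) libraries for 6 members. The bars of Pcdh10 are alike in all libraries (62.1% to 72.9% for the longest transcript), whereas those of Pcdh19 run from 1.53% to 100% for the longer transcript.

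The partners of the family showed no called gene either. Of the catenins, which couple classical cadherins to actin, 0 of 9 passed in either direction, 7 had log2 fold changes above 0, and the median was 0.18. In 4 of them ethanol lay above control without overlap, as in 9.35% of all genes, namely Ctnna2, the neuronal alpha-catenin (log2 fold change 0.40, SE 0.17), Arvcf (0.32, SE 0.18), Ctnna1 (0.21, SE 0.15) and beta-catenin, Ctnnb1 (0.16, SE 0.14). Without control 2, Arvcf was at 0.20. For Ctnna1 the gap was slight, with control 2 at 92.99 CPM and ethanol 2 at 93.03 CPM. Of the 9 junction partners 0 passed, 6 lay above 0 and the median was 0.07. Nectin2, an immunoglobulin-type adhesion protein of adherens junctions, had 0.49 (SE 0.19), and the small GTPase gene Rap1a had -0.65 (SE 0.27), with groups that do not overlap in opposite directions (9.35% of all genes above, 8.41% below). Rap1a was at -0.38 without ethanol 1.

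Of the 9 genes of the WAVE complex 0 passed, 7 lay above 0 and the median was 0.27. Cyfip1, a subunit that receives signals from Rac, held 60.8, 61.9 and 58.3 CPM in control and 86.7, 72.1 and 80.1 CPM in ethanol, and its log2 fold change was 0.40 (SE 0.15). It was the 1 gene of 9 in the complex with ethanol above control without overlap, against 9.35% of all genes. Of 10 proteases and secretase subunits that process cadherins 0 passed, and the median was 0.04. In this list none had groups that do not overlap, against 17.8% of all genes. The one with the smallest unadjusted p was Pcsk6, a proprotein convertase gene, with 0.41 (SE 0.20), or 0.20 without ethanol 1. Of 20 other genes of the cadherin superfamily 16 were tested and 0 passed, with 10 above 0 and a median of 0.19. The planar polarity cadherin Celsr1 (0.68, SE 0.32), Cdhr3 (0.73, SE 0.38) and the calsyntenin Clstn1 (0.27, SE 0.16) had ethanol above control without overlap. These were 3 of 16 tested genes, against 9.35% of all genes. Cdhr3 was low, with 1.04 to 1.33 CPM in control and 1.51 to 2.66 CPM in ethanol. Celsr1 was at 0.41 and Cdhr3 at 0.45 without ethanol 3, and Clstn1 at 0.12 without ethanol 1.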

How the data were processed

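The data are bulk mRNA sequencing of 6 mouse samples, 3 control and 3 ethanol. The authors deposited a table of 36780 RefSeq transcripts, giving each transcript's length and, for every sample, reads and FPKM, per the file headers. Build mm10 and the tool bcl2fastq stand in the submitters' processing notes. Which aligner and counter were used is not given in the sources used here. Values in the read columns deposited by the authors are estimated counts. For all transcripts with 20 or more reads they exceeded FPKM times length times library size by 0 to 1 read (tolerance 0.05), as rounding up gives. Reads of paralogs and isoforms may thus be divided wrongly, and use of strand is not stated.

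Counts were summed to 24532 genes. Genes kept by filterByExpr (minimum count 10) were scaled by TMM and compared with the quasi-likelihood test of edgeR 4.0.16 in R 4.3.3, two-sided, with Benjamini-Hochberg adjustment over all tested genes at 0.05. The SE is the log2 fold change over the square root of F. DESeq2 1.42.0, limma-voom (limma 3.58.1), other scalings and filters, a replicate block and fits without each library were alternatives. The deposited FPKM were summed per gene for levels between genes. Classes are from textbook knowledge. Log2 fold changes are given for Cdh22, for members whose groups do not overlap and for the 3 most abundant of each class, and of partner lists for up to 4 genes without overlap, otherwise the smallest p. The members and lists were chosen with earlier results of these data known.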

Additional observations from a re-analysis of the deposited data

How the results depend on the processing

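Of 30 named genes, all but Pcdh9, Cdh23, Cdh15 and Pcdh7 had a log2 fold change of 1 sign in every alternative fit. Pcdh9 was reversed with total counts only (-0.0285), limma-voom (-0.0083) and the replicate block (-0.0042), and without control 1 (-0.03), ethanol 1 (-0.08) or ethanol 3 (-0.11), with a range of -0.11 to 0.29 when 1 library was left out. Cdh23 was reversed without control 1 (0.10), ethanol 2 (0.06) or ethanol 3 (0.13), with a range of -0.70 to 0.13. Cdh15 (-0.0146, range to 0.43) and Pcdh7 (0.0287, range from -0.39) were reversed without ethanol 2. The cause was not tested. The count of genes called over the whole table was 0 in edgeR with each scaling, filter and the replicate block and 0 with limma-voom, 145 with DESeq2, and 0 to 211 with 1 library left out, the highest without ethanol 2. At an unadjusted p under 0.05 edgeR had 1681 genes. The count of called members other than Cdh22 was 1 with DESeq2, and 0 to 3 with 1 library left out. The count of members whose groups do not overlap, Cdh22 included, was 3 of 31 with total counts only (17.6% of all genes). It was 3 of 31 with the deposited FPKM (18.3%) and 6 of 34 with no low-count filter (15.7%). With 1 library left out, where fewer libraries make such a gap more common, it was 7 to 18 (22.1% to 43% of all genes), the highest being 18 of 32 without ethanol 2 (43%). It is not affected by the choice of test or by the block. Replicate numbers are not said to pair the samples. The correlation of deviations from the group means was 0.22, -0.05 and -0.11 for numbers 1 to 3. The ethanol library that matched a control best had the same number for number 1 only. With 3 libraries per group these values cannot settle whether samples were paired. The block called 0 genes, as did the fit without it. Depth leaves Cdh1, Cdh3, Cdh16, Cdh17 and Cdh26 unresolved between groups.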

Other observations

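The genes beside Cdh22 on chromosome 2 did not share its separation of the groups. The 3 tested genes on either side were Slc12a5, Ncoa5, Cd40, Slc35c2, Elmo2 and Zfp334, and in each of them the ethanol and control libraries overlapped. Slc12a5, the neuronal potassium-chloride cotransporter gene, had a log2 fold change of 0.43 (SE 0.20) and Zfp334 one of 0.31 (SE 0.21). Slc35c2, the nearest tested gene beyond the start of Cdh22, held 62.9, 65.3 and 65.4 CPM in control and 75.2, 80.2 and 59.5 CPM in ethanol. These genes were named by position.

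Markers of other cell types differed between the libraries beside the family. Septal and basal forebrain markers had 10 of 10 tested members above 0, the median being 0.41 on the log2 scale. Their summed levels were 235 to 265 CPM in control and 203 to 381 CPM in ethanol, where ethanol 2 was the lowest. Most of each sum was Dlk1, with 153 to 181 CPM in control and 266, 111 and 179 CPM in ethanol 1 to 3. Gbx1, Lhx8 and Nkx2-1 were highest in ethanol 2, while in the other markers ethanol 2 was the lowest ethanol library. Cortical glutamatergic markers had 7 of 9 below 0 with a median of -0.45. Their summed levels overlapped, with 487 to 706 CPM in control and 436 to 652 CPM in ethanol. Slc17a7 was the 1 of these 9 with ethanol below control without overlap, against 8.41% of all genes. It held 289, 58.2 and 102 CPM in control and 24.7, 9.42 and 56.0 CPM in ethanol. Astrocyte markers had 7 of 8 above 0, with summed levels of 3287 to 3620 CPM in control and 3849 to 4702 CPM in ethanol. Choroid plexus and ependymal markers summed to 464 CPM in control 3 and to 53.2 to 76.8 CPM in the other 5 libraries. Of the 464 CPM, 394 were Ttr, and without that gene control 3 had 69.6 CPM and ethanol 2 74.7 CPM. Medians were -0.03 for interneuron, 0.27 for microglial, -0.10 for mural and 0.90 for blood cell markers. The part of these markers in the values of Cdh22, Cdh8, Cdh18 and Pcdh8 was not tested.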
